A study of Mus musculus with 12 samples.

Results

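Circular RNAs of Alg12, Rad23b and Mpzl1 were measured in 4 mouse cell lines, and these 3 host genes were selected on the tumour comparisons themselves: the reads of each were lower in both tumour lines than in the non-tumour line of the same lineage. The members are the rows that name exactly 1 of these genes as host. There were 6 of them, 2 per host, among 13474 circular RNAs (circRNAs), and all 6 were listed both in the table of the mammary lines and in the table of the melanocyte lines. The tumour lines were 4T1, a breast cancer line, and B16F10, a melanoma line. Their references were Eph4-ev, a breast epithelial line, and Melan-a, a melanocyte line. Each line had 3 libraries, no treatment is given in the labels, and total RNA of every library was digested with RNase R, an exonuclease that removes linear RNA. Each kind of cell is a single line, so tumour state and any other feature of a line cannot be told apart. Nothing says that the libraries of a line came from separate cultures, so a p-value measures only the spread between these libraries.

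A circRNA forms when the spliceosome joins the end of an exon back to the start of the same or an earlier exon of one transcript. The closed circle has no free ends, and the join, the back-spliced junction, is the sequence by which its reads are told from those of the linear mRNA. Alg12 encodes a mannosyltransferase of the endoplasmic reticulum that extends the lipid-linked sugar precursor used for N-glycosylation of proteins. Rad23b encodes a partner of Xpc in the recognition of DNA damage by nucleotide excision repair, and the protein also carries ubiquitinated proteins to the proteasome. Mpzl1, also called PZR, is a transmembrane protein of the immunoglobulin superfamily whose phosphorylated tail binds the phosphatase SHP2 and is phosphorylated by Src family kinases. Linear transcripts and proteins of these genes were not analysed here.

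The junctions that define 5 of the 6 circRNAs are shown first, since every read counted for a member crosses its junction. That of the rare circle of Alg12 exons 2 to 5 is not shown. Each sequence is 5′ to 3′ on the gene's strand. The 25 bases in lower case are the end of the last exon, and the 25 in capitals are the start of the first exon of the circle. The sequences come from GENCODE M21 transcripts of GRCm38, the assembly that mm10 names.
Alg12 exons 6 to 7: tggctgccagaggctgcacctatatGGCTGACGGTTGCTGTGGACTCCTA
Rad23b exons 2 to 4: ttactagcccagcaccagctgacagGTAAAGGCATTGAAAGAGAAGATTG
Rad23b exons 2 to 9: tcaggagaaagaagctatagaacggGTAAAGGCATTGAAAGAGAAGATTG
Mpzl1 exons 2 to 4: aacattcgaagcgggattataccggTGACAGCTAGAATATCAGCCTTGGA
Mpzl1 exons 2 to 5: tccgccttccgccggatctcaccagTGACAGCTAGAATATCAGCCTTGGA
Both circles of Rad23b begin at exon 2 and so share the bases in capitals, and both circles of Mpzl1 do too. Within each of these pairs, only the lower-case bases tell one circle from the other. The whole Alg12 circle consists of the following exons, each given in full since this circRNA carried most of the reads.
Alg12 exon 6: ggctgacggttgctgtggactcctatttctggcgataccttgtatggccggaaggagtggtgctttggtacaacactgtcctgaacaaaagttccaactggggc
Alg12 exon 7: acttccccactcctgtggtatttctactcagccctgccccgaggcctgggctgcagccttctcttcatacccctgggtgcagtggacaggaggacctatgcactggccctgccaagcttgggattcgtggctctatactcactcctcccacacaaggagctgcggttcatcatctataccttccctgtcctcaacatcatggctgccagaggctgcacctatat

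By position, the Alg12 circles lie on the minus strand of chromosome 15. The circle of exons 6 to 7 spans chr15:88811297-88812159 (mm10) and holds 328 spliced bases, and that of exons 2 to 5 spans chr15:88814454-88816254 and holds 690. On the plus strand of chromosome 4, the Rad23b circle of exons 2 to 4 spans chr4:55366777-55370472 and holds 431 spliced bases. The longer Rad23b circle, of exons 2 to 9, spans chr4:55366777-55385601 and holds 1071, which leaves out only the first and last of the transcript's 10 exons. On the minus strand of chromosome 1, the Mpzl1 circles of exons 2 to 4 and 2 to 5 span chr1:165604610-165608604 and chr1:165601750-165608604 and hold 514 and 620 spliced bases. Over the 12565 circRNAs with reads that could be matched to the exons of 1 transcript, the median was 481 spliced bases and 3 exons.

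A start at exon 2 was shared by 5 of the 6 members, which come from only 3 hosts, against 32.3% of all matched circRNAs. In those of Mpzl1 and Rad23b the first intron, which lies just upstream, is long, with 25698 bases in Mpzl1 and 16349 in Rad23b, against a median upstream intron of 7713 bases for all matched circRNAs. The circle of Alg12 exons 2 to 5 also starts at exon 2, but the intron before it has only 3003 bases. The abundant Alg12 circle differs in both respects. It starts at exon 6, and the intron before it has 2294 bases. Of the 6 members, 5 consist of coding sequence alone, as do 83.3% of matched circRNAs, and the circle of Alg12 exons 2 to 5 holds the start codon of Alg12.

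**Figure D1:**
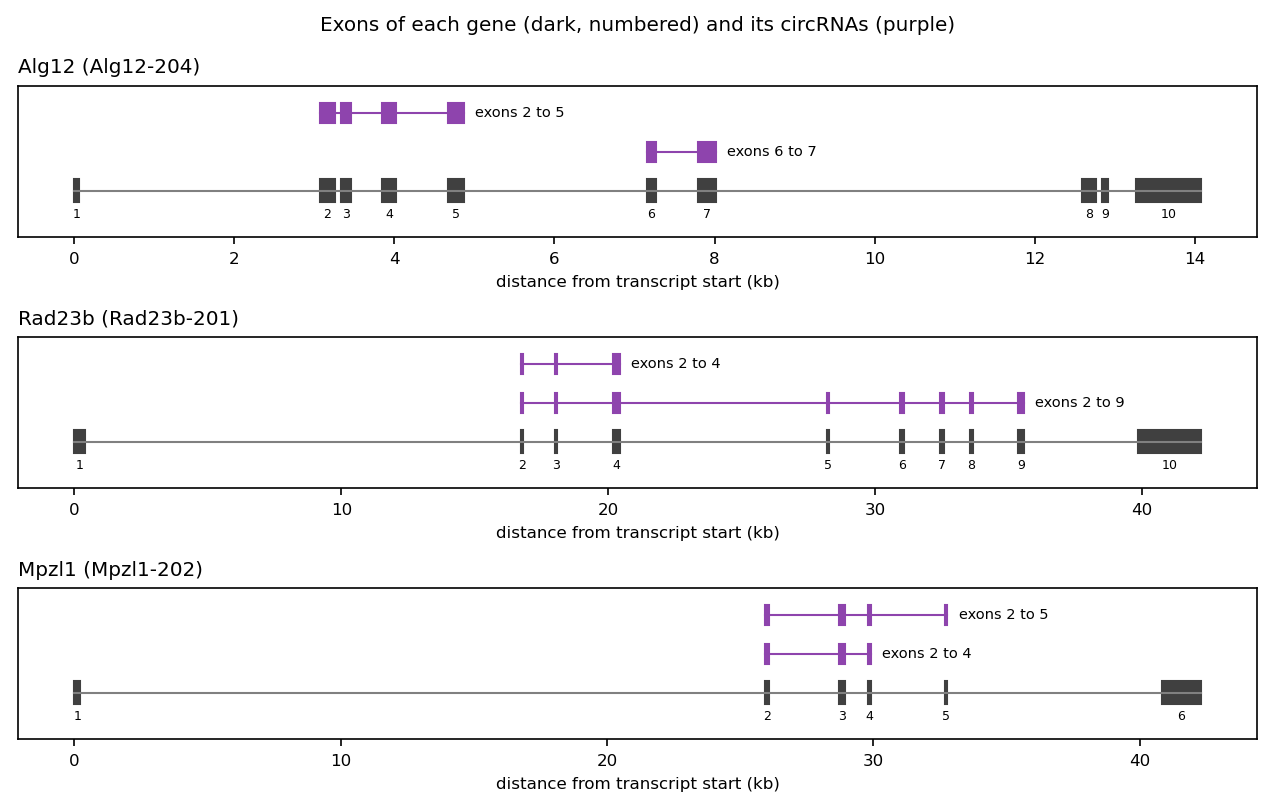
Exons of Alg12, Rad23b and Mpzl1 along each transcript, in kilobases from its start (dark boxes, numbered), with the exons of each circRNA above them (purple). Exon 2 is the first exon of 5 of the 6 circles, and the Alg12 circle of exons 6 to 7 is the exception.

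The measure is the number of reads across a back-spliced junction, and RPM, here reads per 1000000 junction reads of the library, is used for levels. RPM is a share of the circular reads, not an amount per cell. In libraries made from many cells, fewer cells with a circRNA and fewer copies per cell cannot be told apart. Depth ran between 15572 and 44625 junction reads in 4T1, 50648 and 56649 in Eph4-ev, 16697 and 20011 in B16F10, and 25072 and 33557 in Melan-a. A count of 0 over the 3 libraries of a line allows up to 3 reads, or 38.5 RPM in 4T1, 18.4 in Eph4-ev, 55.9 in B16F10 and 35.8 in Melan-a, counting error only. Of 12 pigment cell hosts, 8 had reads in B16F10 and 9 in Melan-a, among them Tyr and Pmel, while 4T1 had none and Eph4-ev only 5 reads of Mitf. Of 12 epithelial hosts, 5 had reads in both 4T1 and Eph4-ev, among them Epcam and Krt7, B16F10 had none and Melan-a had 1 read of Esrp1. Hosts on the fibroblast and immune lists had 0 reads in every line.

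The selection can be stated in numbers. Of the 6 members, 5 passed the filter on low counts in 4T1 against Eph4-ev and 4 in B16F10 against Melan-a, mostly through their reads in the non-tumour line. Of 656 circRNAs tested in both lineages with edgeR's quasi-likelihood test, 10 were called lower in both tumour lines (Benjamini-Hochberg adjusted p under 0.05). Ordered by the larger of the 2 adjusted p-values, Alg12 exons 6 to 7 had rank 2, Mpzl1 exons 2 to 4 rank 3, Rad23b exons 2 to 4 rank 4 and Mpzl1 exons 2 to 5 rank 6. The last inside the threshold was a circRNA of Enah, an actin regulator, with log2 folds of -1.96 in 4T1 over Eph4-ev and -1.89 in B16F10 over Melan-a. The first outside was one of Gbe1, the glycogen branching enzyme, with -2.54 and -2.05. Because the members were chosen by these contrasts, the values of 4T1 against Eph4-ev and of B16F10 against Melan-a are a description and support nothing. Over all circRNAs tested, 17.4% were called in either direction in 4T1 against Eph4-ev and 10.9% in B16F10 against Melan-a, and over all host sums 17.5% and 7.13%.

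Alg12 was read almost wholly through its circle of exons 6 to 7, the most abundant member and the only one with reads in all 12 libraries. It had 6, 16 and 19 reads in 4T1, against 108, 116 and 126 in Eph4-ev. In the melanocyte lineage it had 51, 58 and 39 reads in B16F10, against 267, 170 and 285 in Melan-a. The lines did not overlap in RPM, and the order was Melan-a, B16F10, Eph4-ev and 4T1 from the highest down. The level averaged 571 ± 287 RPM in 4T1, against 2149 ± 111 in Eph4-ev (SD, n = 3 each). It averaged 2769 ± 576 RPM in B16F10, against 9015 ± 3437 in Melan-a (SD, n = 3 each), where replicate 2 was the low library at 5066 RPM. On these RPM values, which each table scales separately, the melanoma line stood above the non-tumour mammary line.

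With the reads of each line pooled and scaled by depth, the Alg12 circle of exons 6 to 7 in 4T1 was 0.245 times that in Eph4-ev (95% exact counting interval 0.173 to 0.339). In B16F10 it was 0.320 times that in Melan-a (interval 0.266 to 0.383). The fitted log2 folds, which use TMM factors, were -2.18 (SE 0.33) for 4T1 over Eph4-ev and -1.75 (SE 0.32) for B16F10 over Melan-a. They were called in each of the 14 settings and library omissions tried in either lineage, a description only, since these contrasts made the selection. The deepest 4T1 library, replicate 3, gave 426 RPM, so its level lay between those of the shallower libraries, at 385 and 902.

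The other circle of Alg12, of exons 2 to 5, did not share this pattern. It had 0, 0 and 6 reads in 4T1, against 0, 0 and 6 in Eph4-ev. In the melanocyte lines it had 0, 0 and 1 reads in B16F10, against 0, 0 and 0 in Melan-a. All of its reads thus came from the library numbered 3 of a line. It was too rare for the main test. It was not called in the 3 alternatives that could test it in 4T1 against Eph4-ev, nor in the 1 in B16F10 against Melan-a. Its 4T1 over Eph4-ev ratio of 2.09 had an interval of 0.559 to 7.82. In replicate 3 these reads were 24.0% of the 25 Alg12 reads in 4T1 and 4.55% of the 132 in Eph4-ev, and the share was 0% in the other libraries of both lines (two-sided exact permutation p = 1, n = 3 each).

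Rad23b reads were most frequent in Eph4-ev and absent from 4T1. Its shorter circle, of exons 2 to 4, had 0, 0 and 0 reads in 4T1, against 60, 55 and 50 in Eph4-ev, at least 26.3-fold lower in 4T1 with the floor of 3 reads per line. It had 1, 1 and 1 reads in B16F10, against 14, 9 and 23 in Melan-a. Neither tumour line overlapped its non-tumour line. Pooled, B16F10 stood at 0.102 times Melan-a, with an interval of 0.0203 to 0.317 that reflects only 3 reads in B16F10.

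The longer Rad23b circle, of exons 2 to 9, was read mainly in Eph4-ev. Its reads numbered 0, 0 and 0 in 4T1 and 36, 22 and 20 in Eph4-ev, at least 12.4-fold lower in 4T1. In the melanocyte lines it had 0, 0 and 0 reads in B16F10, against 0, 1 and 0 in Melan-a, where both lines were at or under the floor and no fold is given. Summed over both circles, Rad23b stood at 0 RPM in 4T1, against 1505 ± 342 RPM in Eph4-ev (SD, n = 3 each), at least 38.8-fold lower in 4T1. The sum was 56.3 ± 5.49 RPM in B16F10, against 590 ± 309 RPM in Melan-a (SD, n = 3 each). Replicate 3 of 4T1, at 0 reads of Rad23b, held 44625 junction reads, close to the depth of an Eph4-ev library.

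The B16F10 side of the Rad23b selection rested on few reads. The circle of exons 2 to 4 was called lower in B16F10 in 6 of the 12 settings and omissions in which it could be tested. Adjusted p in edgeR was 0.0588 with no filter, 0.0845, 0.0570 and 0.0701 without B16F10 replicates 1, 2 and 3, and 0.0571 and 0.117 without Melan-a replicates 1 and 3. At host level the call was lost without the same libraries, with an adjusted p between 0.0567 and 0.114. In 4T1 against Eph4-ev, the circle of exons 2 to 4, that of exons 2 to 9 and the host sum were called in every setting tested. That is a description only, since this contrast made the selection and the filter was passed through Eph4-ev alone.

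Mpzl1 reads were absent from 4T1 and most frequent in Melan-a. The circle of exons 2 to 4 had 0, 0 and 0 reads in 4T1, against 18, 12 and 24 in Eph4-ev, at least 8.61-fold lower in 4T1. It had 0, 4 and 2 reads in B16F10, against 27, 58 and 23 in Melan-a, a pooled ratio of 0.0868 (interval 0.0312 to 0.195). Tumour and non-tumour libraries did not overlap in either lineage. The empty B16F10 library, replicate 1, was the deepest of that line with 20011 junction reads.

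The Mpzl1 circle of exons 2 to 5 was at 0 in the same libraries as the shorter one. It had 0, 0 and 0 reads in 4T1, against 8, 14 and 8 in Eph4-ev, at least 4.79-fold lower in 4T1. In the melanocyte lineage it had 0, 4 and 3 reads in B16F10, against 21, 23 and 19 in Melan-a, a pooled ratio of 0.174 (interval 0.0670 to 0.379). Summed over both circles, Mpzl1 stood at 0 RPM in 4T1, against 516 ± 58.6 RPM in Eph4-ev (SD, n = 3 each), at least 13.4-fold lower in 4T1. The sum was 257 ± 239 RPM in B16F10, against 1999 ± 379 RPM in Melan-a (SD, n = 3 each). B16F10 overlapped both Eph4-ev, at 472 RPM in its replicate 2, and 4T1, at 0 in its replicate 1.

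The host sum of Mpzl1 was called lower in each of the 14 settings and omissions in both lineages. As these contrasts made the selection, this is a description only. The circle of exons 2 to 4 lost its call in 4T1 against Eph4-ev without Eph4-ev replicates 2 (edgeR adjusted p = 0.0656) and 3 (0.0642). That of exons 2 to 5 was called in 4 of 12 there. It lost the call without any one of the 6 libraries, with an adjusted p between 0.0642 and 0.144, with no filter (0.0665) and with replicate number as a block (0.112). In B16F10 against Melan-a it lost the call without B16F10 replicates 1 (0.111) and 3 (0.0778) and without Melan-a replicates 1 (0.0954) and 3 (0.0657).

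**Figure D2:**
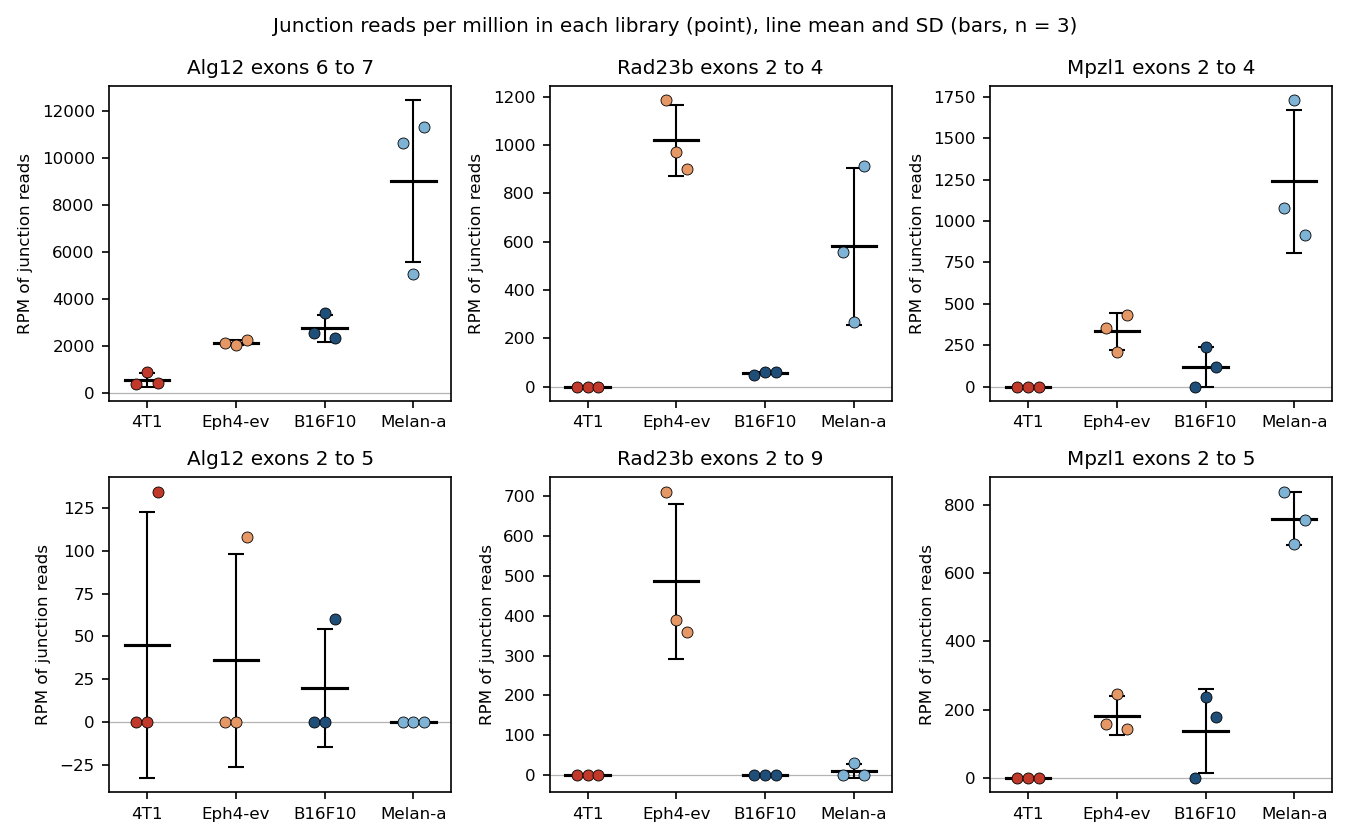
Junction reads in RPM (linear axes) of each of the 6 circRNAs in every library (points), with the mean and SD of each line (black bars, n = 3). Alg12 exons 6 to 7 stood at 571 RPM in 4T1, 2149 in Eph4-ev, 2769 in B16F10 and 9015 in Melan-a, whereas both circles of Rad23b and of Mpzl1 were at 0 in 4T1.

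**Figure D3:**
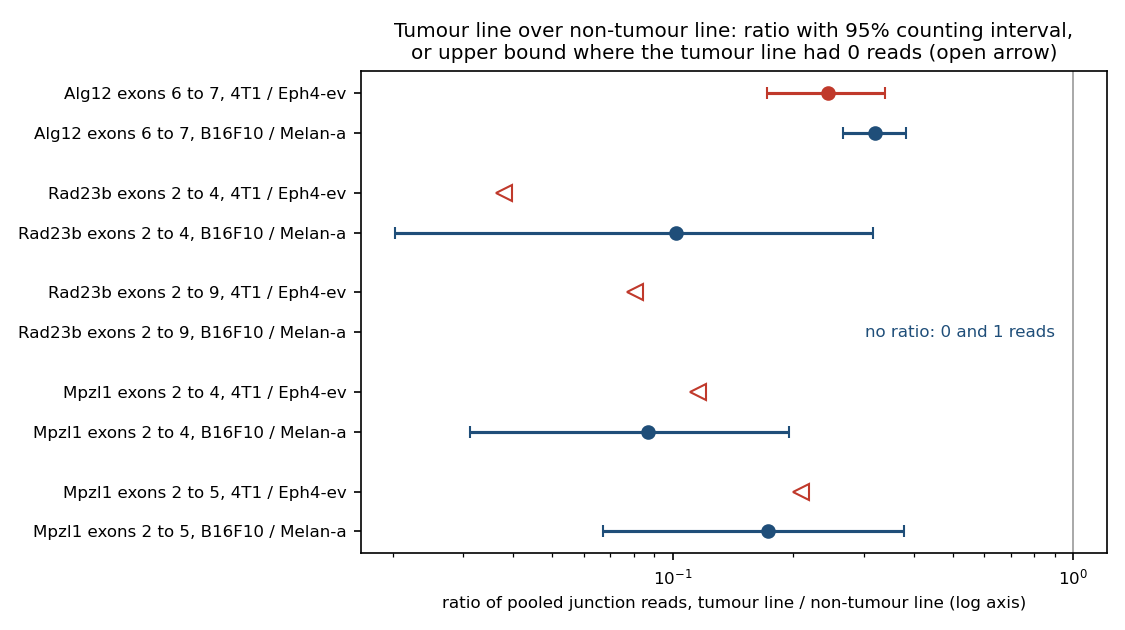
Pooled junction reads of the tumour line over the non-tumour line, on a log axis: points with 95% counting intervals, or open arrows for an upper bound where the tumour line had 0 reads. The values shown lie below 1, from 0.320 for Alg12 exons 6 to 7 in B16F10 over Melan-a downwards. Rad23b exons 2 to 9 had too few melanocyte reads for a ratio, and the rare circle of Alg12 exons 2 to 5, at 2.09 in 4T1 over Eph4-ev (interval 0.559 to 7.82), is not drawn.

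Comparisons across lineages were not used for the selection. It did use the reads of every line, so the p-values of these comparisons are not independent of it. Here the counts of 2 separately made tables were fitted together, over features that both list, so lineage and table cannot be told apart. The filter there kept 5 of the 6 members. In 4T1 against B16F10, 22.5% of circRNAs and 25.4% of host sums were called in either direction. The Alg12 circle of exons 6 to 7 was lower in 4T1, with 571 ± 287 RPM in 4T1 and 2769 ± 576 in B16F10 (SD, n = 3 each) and a log2 fold of -2.51 (SE 0.35; adjusted p = 1.88e-05 in edgeR). The Alg12 host sum was lower too, with a log2 fold of -2.31 (SE 0.34; adjusted p = 1.34e-05 in edgeR). Both calls held in all 19 alternatives.

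Mpzl1 was also lower in 4T1 than in B16F10. Its host sum had 0, 0 and 0 reads in 4T1, against 0, 8 and 5 in B16F10, at least 6.29-fold lower in 4T1 (edgeR adjusted p = 0.00296), and this call held in all 19 alternatives. The libraries overlapped, since B16F10 replicate 1 was also at 0, and Mpzl1 passed the filter on low counts only through the non-tumour lines. The 0 reads in 4T1 were also part of the selection. The p-values of Mpzl1 and of its circles in this comparison are therefore a description only. Its circle of exons 2 to 4 passed (edgeR adjusted p = 0.0337) but lost the call without 4T1 replicates 1 (0.0632), 2 (0.0646) and 3 (0.125) and without B16F10 replicates 2 (0.176) and 3 (0.0684). That of exons 2 to 5 passed (edgeR adjusted p = 0.0244) but lost the call without the same 4T1 libraries (0.0519, 0.0547 and 0.109) and the same B16F10 libraries (0.114 and 0.0755). This circle was kept by the filter on low counts only through Melan-a, which is not part of the comparison. Rad23b did not pass (host sum, edgeR adjusted p = 0.0748), with 0 reads in 4T1 and 3 in B16F10.

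Between the non-tumour lines, Eph4-ev and Melan-a, the hosts went in different directions. Of all circRNAs tested, 27.1% were called in either direction, and of host sums 27.5%. Alg12 exons 6 to 7 was lower in Eph4-ev (edgeR log2 fold -2.06 with SE 0.30, adjusted p = 2.52e-05), as was the Alg12 host sum (-2.09, SE 0.29, edgeR adjusted p = 2.44e-06). The Mpzl1 host sum was lower as well, with 26, 26 and 32 reads in Eph4-ev and 48, 81 and 42 in the shallower Melan-a libraries (edgeR log2 fold -2.01 with SE 0.49, adjusted p = 0.00298). Pooled ratios of Eph4-ev over Melan-a were close for these hosts, at 0.254 for Alg12 (interval 0.223 to 0.288) and 0.253 for Mpzl1 (interval 0.192 to 0.330). The Alg12 and Mpzl1 host calls held in all 19 alternatives.

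The single circles of Mpzl1 had fewer reads than the host sum. That of exons 2 to 4 was lower in Eph4-ev, with a log2 fold of -1.94 (SE 0.60; adjusted p = 0.0213 in edgeR), and lost the call without Eph4-ev replicates 1 (0.0679), 2 (0.130) and 3 (0.0596) and without Melan-a replicate 2 (0.170). That of exons 2 to 5 had 30 reads in Eph4-ev and 63 in Melan-a, a depth-scaled ratio of 0.245 (interval 0.153 to 0.384, counting error only). It passed the filter on low counts only through Melan-a, where it is high, so no test of it is given.

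The Rad23b host sum was higher in Eph4-ev than in Melan-a. Its circle of exons 2 to 9 had 78 reads in Eph4-ev and 1 in Melan-a, a depth-scaled ratio of 40.1 (interval 6.99 to 1605, counting error only). This circle passed the filter on low counts only through Eph4-ev, where it is high, so no test of it is given. That of exons 2 to 4 had 1019 ± 148 RPM in Eph4-ev and 580 ± 324 RPM in Melan-a (SD, n = 3 each), overlapped between the lines and did not pass (edgeR log2 fold 0.83 with SE 0.53, adjusted p = 0.272). The host sum, which adds both circles, passed (edgeR log2 fold 1.32 with SE 0.47, adjusted p = 0.0378). It lost the call without any 1 Eph4-ev library (0.193, 0.0928 and 0.0720 without replicates 1, 2 and 3), without Melan-a replicates 1 (0.108) and 2 (0.145), with no filter (0.0786) and with DESeq2 (0.0761).

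**Figure D4:**
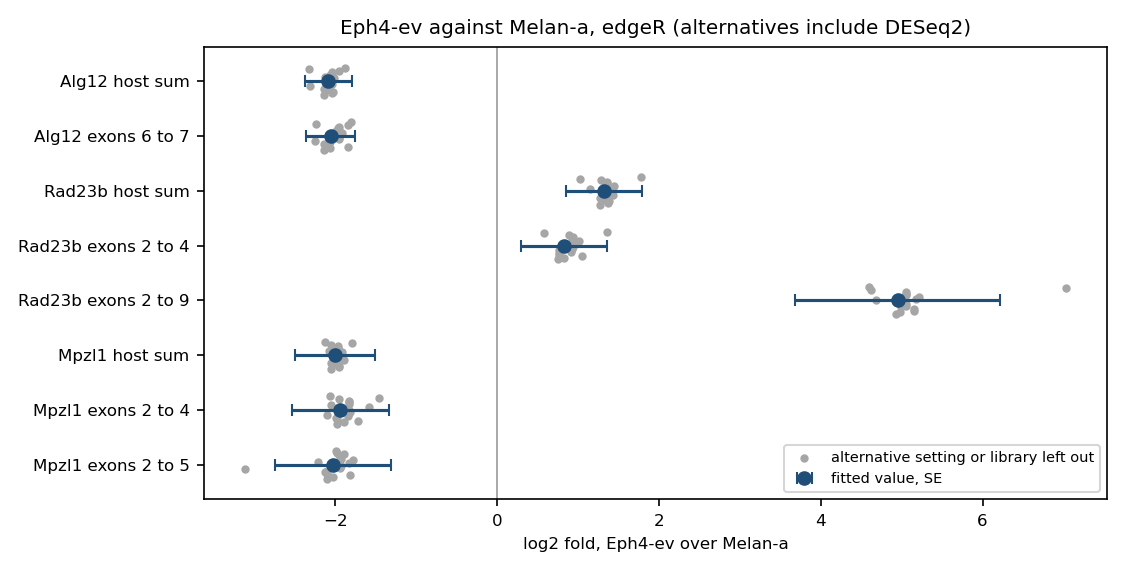
Log2 fold of Eph4-ev over Melan-a for the host sums and their circRNAs (blue points with SE, edgeR), with the value under each alternative or library omission (grey). Alg12 and Mpzl1 lie near -2 and Rad23b to the right of 0. The fold of Rad23b exons 2 to 9 rests on 1 read in Melan-a, so its size depends on the fit.

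The difference between lineages, that is the fold of 4T1 over Eph4-ev minus that of B16F10 over Melan-a, is built from the contrasts used for the selection and is given as a description. It was called for 10.7% of all circRNAs and 9.67% of all host sums, and for none of the member features tested. For the Alg12 circle of exons 6 to 7 the difference was -0.45 on the log2 scale (SE 0.45), and for the Alg12 host sum -0.22 (SE 0.43). With 0 reads in 4T1, no size of the difference is given for Rad23b and Mpzl1. A value that misses the threshold does not show that the lineages behave alike.

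The balance of the longer and shorter circle was not itself a criterion of the selection. It is made from the same reads, so its p-values are not independent of the selection. Of the Rad23b reads, those of exons 2 to 9 made up 37.5%, 28.6% and 28.6% in Eph4-ev, against 0%, 10% and 0% in Melan-a. The libraries of these lines did not overlap. The means were 31.5 ± 5.15% in Eph4-ev and 3.33 ± 5.77% in Melan-a (SD, n = 3 each; two-sided exact permutation p = 0.1, the lowest reachable with 3 libraries a line). Pooled, the share was 32.1% in Eph4-ev (78 of 243 reads, 95% Clopper-Pearson interval 26.3 to 38.4) and 2.13% in Melan-a (1 of 47 reads, interval 0.0539 to 11.3). In B16F10, with 3 reads of Rad23b, the interval ran from 0 to 70.8%, so no share can be given there.

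For Mpzl1 the longer circle took 30.8%, 53.8% and 25% of the reads in Eph4-ev, against 43.8%, 28.4% and 45.2% in Melan-a. These overlapped, with means of 36.5 ± 15.3% in Eph4-ev and 39.1 ± 9.32% in Melan-a (SD, n = 3 each; two-sided exact permutation p = 0.9). The difference in means was -2.59 percentage points, Eph4-ev minus Melan-a. B16F10 had 7 of 13 reads in the longer circle (53.8%, Clopper-Pearson interval 25.1 to 80.8), an interval that holds the pooled share of Melan-a, 36.8%.

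**Figure D5:**
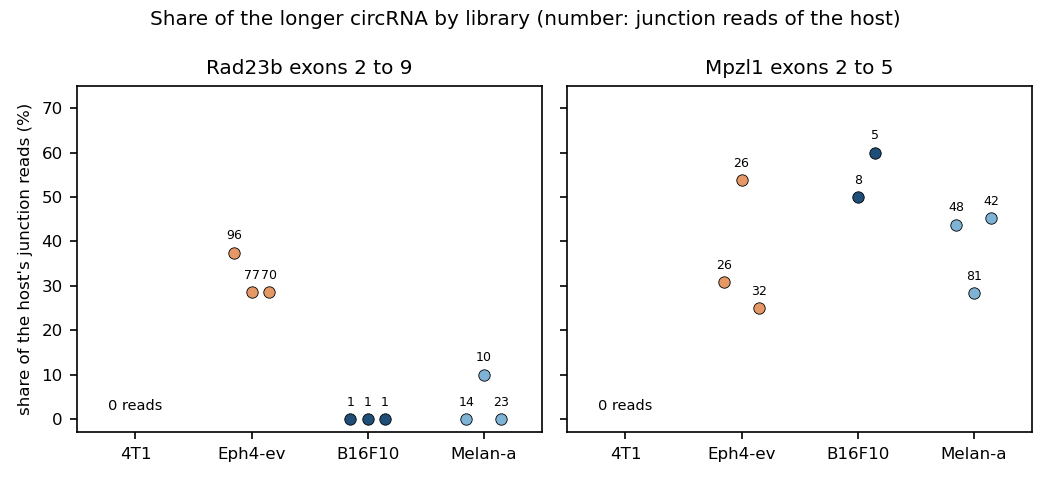
Share of the host's junction reads that belonged to the longer circle, per library, for Rad23b (exons 2 to 9) and Mpzl1 (exons 2 to 5), with the host's reads printed above each point. For Rad23b the Eph4-ev libraries lie between 28.6% and 37.5% and the Melan-a libraries at or under 10%, while for Mpzl1 both lines overlap.

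Read round the circle, the members differ in their open reading frames. In a circle whose length is a multiple of 3, a frame with no stop codon never ends, and this holds for Rad23b exons 2 to 9, with 357 codons per round and none of them a stop. Endless frames with an ATG were found in 31.7% of all matched circRNAs. The Alg12 circle of exons 6 to 7 has a remainder of 1 base, so a frame shifts at each pass, and its frame from an ATG across the junction ran through 262 codons, 786 bases in a circle of 328. The frame of Rad23b exons 2 to 4 had 94 codons, and neither Mpzl1 circle had a frame that began at an ATG and crossed the junction. Over matched circRNAs without an endless frame, the median was 151 codons, counting 0 where no such frame was found. These are properties of the sequence, and translation was not measured.

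Hosts whose profile over the 12 libraries came nearest to that of a member were ranked among 1129 hosts by the root mean square difference of centred log2 CPM. The nearest to Alg12 was Shq1, an assembly factor of H/ACA ribonucleoproteins, at 0.44, against a median of 1.67 over all hosts. Shq1 averaged 419 RPM in 4T1, 1491 in Eph4-ev, 2092 in B16F10 and 3565 in Melan-a, the same order of lines as Alg12. Gclc, the catalytic subunit of the enzyme that starts glutathione synthesis, stood at 0.54. The nearest to Rad23b was Tacc2 (0.49, median 2.01), which was at 0 RPM in both tumour lines and averaged 714 RPM in Eph4-ev and 321 RPM in Melan-a, followed by Scamp1 (0.82) and Glt1d1 (0.92). The nearest to Mpzl1 were Arid1a, a chromatin remodelling subunit (0.86, median 2.15), and Enah (0.93). Among themselves, the members differed by 1.06 for Alg12 and Mpzl1, 1.41 for Rad23b and Mpzl1, and 1.55 for Alg12 and Rad23b.

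Host sums of other genes in the pathways of the 3 members are set beside those of all hosts. A host with few reads in either line of a comparison passed the filter on low counts through the other line, where it is high. The p-values of such hosts, among them Cul4a, Ube4b, Gab1, Ptprf and Psmd2 below, are a description only. Over all host sums, 265 of 1515 (17.5%) were called in 4T1 against Eph4-ev and 64 of 898 (7.13%) in B16F10 against Melan-a, and 472 and 190 of them had an unadjusted p under 0.05. Of 69 N-glycosylation genes, 28 had reads in the mammary lines and 11 could be tested in 4T1 against Eph4-ev, with none called by edgeR or DESeq2 and 1 at an unadjusted p under 0.05. Their median log2 fold was -0.17, against -0.09 over all host sums, but it was -0.55 without 4T1 replicate 2, -0.47 without 4T1 replicate 3, 0.00132 without Eph4-ev replicate 1 and -0.59 with a minimum count of 10. In B16F10 against Melan-a, 8 could be tested, none was called by edgeR or DESeq2, and 0 had an unadjusted p under 0.05, with a median of -0.52 against -0.00151 over all. That median was -0.86 without Melan-a replicate 3 and -0.31 without B16F10 replicate 3. Mgat4a, an N-acetylglucosaminyltransferase that adds branches to N-glycans, had the smallest p in both comparisons. It had 10, 7 and 8 reads in 4T1, against 6, 4 and 3 in Eph4-ev (edgeR log2 fold 2.07 with SE 0.83, adjusted p = 0.102), and 10, 10 and 18 reads in B16F10, against 8, 14 and 3 in Melan-a (edgeR log2 fold 1.19 with SE 0.56, adjusted p = 0.243). The chaperone Canx and the mannosidase Man1a2 in the mammary lines, and Canx and the glucosidase II subunit Prkcsh in the melanocyte lines, were next by p, with log2 folds of -0.71 and -0.82 for 4T1 over Eph4-ev and of -0.71 and -1.02 for B16F10 over Melan-a.

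Among 57 genes of nucleotide excision repair and of ubiquitin shuttling to the proteasome, 15 were tested in 4T1 against Eph4-ev, of which 1 was called higher and 0 lower, against 17.5% called over all host sums. Of the 15, 4 had an unadjusted p under 0.05, against 472 of 1515 over all host sums. The median log2 fold of the 15 was -0.02, against -0.09 over all host sums, and lay between -0.06 and 0.17 with 1 library left out, at the ends Eph4-ev replicate 2 and 4T1 replicate 2. It was 1.13 over the 8 genes left with a minimum count of 10. The called host was Cul4a, the scaffold of ubiquitin ligases that act at DNA damage, with 4, 10 and 25 reads in 4T1, against 6, 2 and 5 in Eph4-ev (edgeR log2 fold 2.36 with SE 0.77, adjusted p = 0.0451). Cul4a passed the filter on low counts through 4T1, where it is high, so the call is a description only. It lost the call without 4T1 replicates 2 (0.0950) and 3 (0.154), without Eph4-ev replicates 1 (0.0905), 2 (0.183) and 3 (0.130), with no filter (0.113) and with replicate number as a block (0.119). The ubiquitin chain elongation factor Ube4b had 2, 2 and 0 reads in 4T1, against 22, 20 and 19 in Eph4-ev, which did not pass (edgeR log2 fold -2.69 with SE 0.97, adjusted p = 0.0682) except with no filter (0.0486). Next came the deubiquitinase Atxn3, with a log2 fold of 1.31 (SE 0.55; adjusted p = 0.116 in edgeR).

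In B16F10 against Melan-a, 5 genes of that list were tested and none was called by edgeR or DESeq2, with 1 at an unadjusted p under 0.05, while 7.13% of all host sums were called. The median log2 fold was -0.02, and between -0.35 without Melan-a replicate 2 and 0.15 without B16F10 replicate 3. The proteasome subunit Psmd2 had 4, 1 and 3 reads in B16F10, against 11, 16 and 14 in Melan-a (edgeR log2 fold -1.78 with SE 0.63, adjusted p = 0.104). Gtf2h1, a subunit of the transcription and repair factor TFIIH, had a log2 fold of 1.54 (SE 0.79; adjusted p = 0.289 in edgeR), and was called without Melan-a replicate 2 (0.0397). Psmd1, another proteasome subunit, had a log2 fold of -0.65 (SE 1.11).

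Of 36 relatives of Mpzl1 and genes of SHP2 and Src signalling, 11 were tested in 4T1 against Eph4-ev and none was called by edgeR or DESeq2, with 2 at an unadjusted p under 0.05. Over all host sums, 17.5% were called and 472 of 1515 had an unadjusted p under 0.05. The median log2 fold of the list was -0.29, against -0.09 over all host sums, but it was -0.46 without 4T1 replicate 2, -1.02 without 4T1 replicate 3, -0.44 without Eph4-ev replicate 1 and -0.19 without 4T1 replicate 1. The docking protein Gab1, which also binds SHP2, had 0, 5 and 3 reads in 4T1, against 26, 45 and 16 in Eph4-ev (edgeR log2 fold -2.38 with SE 0.82, adjusted p = 0.0582). Gab1 passed with no filter (0.0170), with a minimum count of 10 (0.0496) and without 4T1 replicate 2 (0.0208). The receptor phosphatase Ptprf had 0, 0 and 9 reads in 4T1, against 23, 30 and 19 in Eph4-ev (edgeR log2 fold -2.29 with SE 0.87, adjusted p = 0.0864), and passed with no filter (0.0388) and without 4T1 replicate 3 (0.0103), the library that held all of its 4T1 reads. The Ras exchange factor Sos1 had a log2 fold of -1.76 (SE 1.03). In B16F10 against Melan-a, 7 were tested, none was called by edgeR or DESeq2 and 0 had an unadjusted p under 0.05, where 7.13% of all host sums were called. The median was 0.02, and between 0.15 without B16F10 replicate 1 and 0.32 without B16F10 replicate 3 when 1 library was left out. The 3 with the smallest p, Spred1, Spred2 and Sos2, had log2 folds of -0.68 (SE 0.38), 0.60 (SE 0.39) and 1.09 (SE 0.83).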

How the data were processed

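Back-spliced junctions were measured in 12 libraries. Per the labels' protocols, the callers were CIRI2, which reads BWA-MEM alignments, and CIRCexplorer2, which reads those of TopHat and TopHat-Fusion. The build was mm10, per the submitters' processing notes, where DESeq, DESeq2 and edgeR stand with no stated use. The sources used here do not say how both callers were combined or filtered. Per the file headers, each library has a deposited count column, of raw junction reads, and an RPM column. The values show that the RPM columns hold the same reads scaled to the column total. RPM times the total was whole within 0.01 for 100% of values, so the count test was used throughout. All per-sample columns were matched to a sample. Without stated molecular identifiers, intervals cover counting error only.

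Host sums run over rows that name 1 host. Rows naming several (160 mammary, 201 melanocyte) stayed out. The tumour comparisons were fitted within each table and the cross-lineage ones over all 12 libraries on features in both tables, with edgeR 4.0.16 in R 4.3.3 (TMM, quasi-likelihood F test, Benjamini-Hochberg adjustment over all features of the fit, threshold 0.05), after filterByExpr at 5 counts or more (10 in total). Fold changes are on the log2 scale, as the first-named line minus the second, and SEs derive from the F statistic. The script was tested on simulated data. Pooled ratios and bounds use total junction reads without TMM factors. Exons and sequences come from GENCODE M21. Alternatives were DESeq2 1.42.0, RLE factors, total reads alone, a stricter filter (10 counts), no filter, thinning to equal depth, a block for the replicate number, and omission of each library in turn. The members and lists were chosen with earlier results of these data known. The text names all member rows and host sums, the circRNAs just inside and outside the selection, up to 3 tested hosts per list and tumour comparison by smallest p, every called one, and the 3 hosts most like each member among those with a mean of at least 5 reads, using a prior count of 2. A host that this rule names is not reported here.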

Additional observations from a re-analysis of the deposited data

How the results depend on the processing

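Called circRNAs numbered 325 in 4T1 against Eph4-ev, 95 in B16F10 against Melan-a, 341 in 4T1 against B16F10, 412 in Eph4-ev against Melan-a and 163 for the difference between lineages. Leaving out 1 library at a time, these counts ranged over 72 to 247, 42 to 145, 219 to 360, 259 to 480 and 100 to 178 in the same order. For host sums, the counts of 265, 64, 341, 369 and 130 ranged over 73 to 266, 32 to 111, 243 to 380, 264 to 394 and 96 to 163. Counts moved by over 1.5 times without each Eph4-ev library in 4T1 against Eph4-ev and without each of the 6 libraries in B16F10 against Melan-a. They also did so, for circRNAs, without 4T1 replicate 3 in 4T1 against B16F10 (219) and without Eph4-ev replicate 2 in Eph4-ev against Melan-a (259) and in the difference between lineages (100). Thinned to equal depth, 174 circRNAs and 167 host sums were called in 4T1 against Eph4-ev. Of the 325 circRNAs, 112 were higher and 213 lower, which became 82 and 92 when thinned. In 4T1 against B16F10, the split of 153 higher and 188 lower became 186 and 160 with total reads alone.

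The difference between lineages for the Alg12 host sum changed sign when thinned (0.12, edgeR adjusted p = 0.972). For the Rad23b host sum the difference crossed the threshold with a minimum count of 10 and without Melan-a replicate 3. For the Mpzl1 host sum it did so without B16F10 replicate 1. These crossings are a description too, since both parts of the difference were used for the selection. Thinned, the Rad23b host sum did not pass in Eph4-ev against Melan-a (0.0517), nor Mpzl1 exons 2 to 4 in 4T1 against B16F10 (0.0587). With no filter, both Mpzl1 circles missed the threshold in 4T1 against B16F10 (0.0550 and 0.0637). That of exons 2 to 4 also missed it in Eph4-ev against Melan-a (0.134). Some members were too rare to be tested when thinned or with a minimum count of 10 and have no value there.

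Same-numbered libraries did not deviate together (correlations of -0.0381 to 0.0292 in the mammary and -0.0582 to 0.0686 in the melanocyte table). Such values cannot exclude a shared batch, so whether the numbers are more than a label cannot be told. With replicate number as a block, 248 circRNAs and 217 host sums were called in 4T1 against Eph4-ev, 78 and 69 in B16F10 against Melan-a, 284 and 293 in 4T1 against B16F10, 359 and 332 in Eph4-ev against Melan-a, and 150 and 110 for the difference between lineages.

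Depth limits these members: in a B16F10 library 1 read stands for up to 59.9 RPM, and Rad23b there rests on 3 reads in all. With 3 libraries a line and 1 line a kind of cell, differences between lines cannot be ascribed to tumour state.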
